A study of Mus musculus with 8 samples.

Results

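Liver RNA from mice given a western diet by itself was compared with liver RNA from mice given carbon tetrachloride (CCl4) by itself. All mice were male, wild-type C57BL/6N animals, an inbred laboratory strain. The western diet + oil group (2 libraries) ate a high-fat diet, drank water with 23.1 g/L fructose and 18.9 g/L glucose, and had weekly intraperitoneal corn oil, the vehicle of CCl4. The normal diet + CCl4 group (2 libraries) ate chow, drank tap water and had CCl4 by the same route every week. The series has 8 libraries; the other 4 are 3 of normal diet + oil and 1 of western diet + CCl4, and their values stand beside the results. The CCl4 dose, the length of treatment, the age of the mice and any pooling of animals are not given in the sources used here. Expression is in FPKM, fragments scaled to transcript length and library size, so a value is a level relative to the rest of its library. Of 55487 genes in the table, 11122 reached 1 FPKM in 2 or more of the 4 compared libraries and were tested.

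A western diet loads hepatocytes with fat, which is kept in lipid droplets coated by perilipins and CIDE proteins and is fed by uptake from blood and by synthesis from sugar. CCl4 is a solvent that the cytochrome P450 enzyme CYP2E1 turns into a reactive radical, mainly in hepatocytes around the central vein, where that enzyme and glutamine synthetase are made. Repeated doses injure that zone, draw in macrophages, activate stellate cells and lead to scarring. Each gene was compared on log2(FPKM + 1), a scale that understates the change of low genes. A gene was called when its limma p-value, adjusted by Benjamini-Hochberg over the 11122 genes, was below 0.05; "higher" and "lower" always describe western diet + oil relative to normal diet + CCl4.

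The 2 libraries within a group were not equally alike. The median gene differed by 0.22 on the log2 scale between the western diet libraries and by 0.27 between the CCl4 libraries, against a median absolute difference of 0.20 between the group means. More than 1 log2 unit separated the western diet libraries for 228 genes and the CCl4 libraries for 732 genes, of which 588 were higher in CCl4 library 1. That library held a summed FPKM of 409.7 over 39 cell cycle genes against 60.2 in CCl4 library 2. The western diet libraries held 59.0 and 67.9 and the normal diet + oil libraries 27.1 to 36.5. CCl4 library 1 also stood above library 2 in markers of macrophages, matrix and ducts, so those groups are given with each CCl4 library left out. Alb, the albumin of hepatocytes, took 4.41% and 2.71% of the FPKM sum in the western diet libraries and 7.39% and 6.01% in the CCl4 libraries. Major urinary proteins (MUPs, abundant pheromone carriers made by male liver) took 9.16% and 10.04% of the FPKM sum in the western diet libraries, 2.80% and 4.65% in the CCl4 libraries and 16.9% to 32.5% in normal diet + oil.

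In all, 87 genes were called, 0.782% of those tested: 57 higher (0.512%) and 30 lower (0.27%). All 87 had groups that did not overlap, as did 40.0% of all tested genes. Of all tested genes, 44.8% had a difference above 0 and 55.2% below 0. A gene under 1 FPKM in both libraries of a group passed the filter only through the other group, which fixed its direction. Among the called genes, 12 were listed at 0 in both CCl4 libraries and 2 in both western diet libraries. In size, 86 of the 87 differences exceeded 1 log2 unit, 29 of the higher genes exceeded 2 and 14 of the lower genes fell under -2. With 2 libraries per group the threshold itself favours large differences, so their size is not a separate result. The higher genes included lipid droplet coats, resident macrophage genes and MUPs, and the lower genes included 6 P450 enzymes and 2 glutathione transferases, as the plot of group means shows in part. At an unadjusted p below 0.05 there were 1268 genes (11.4%), of which 611 were higher (5.49%) and 657 lower (5.91%).

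**Figure D1:**
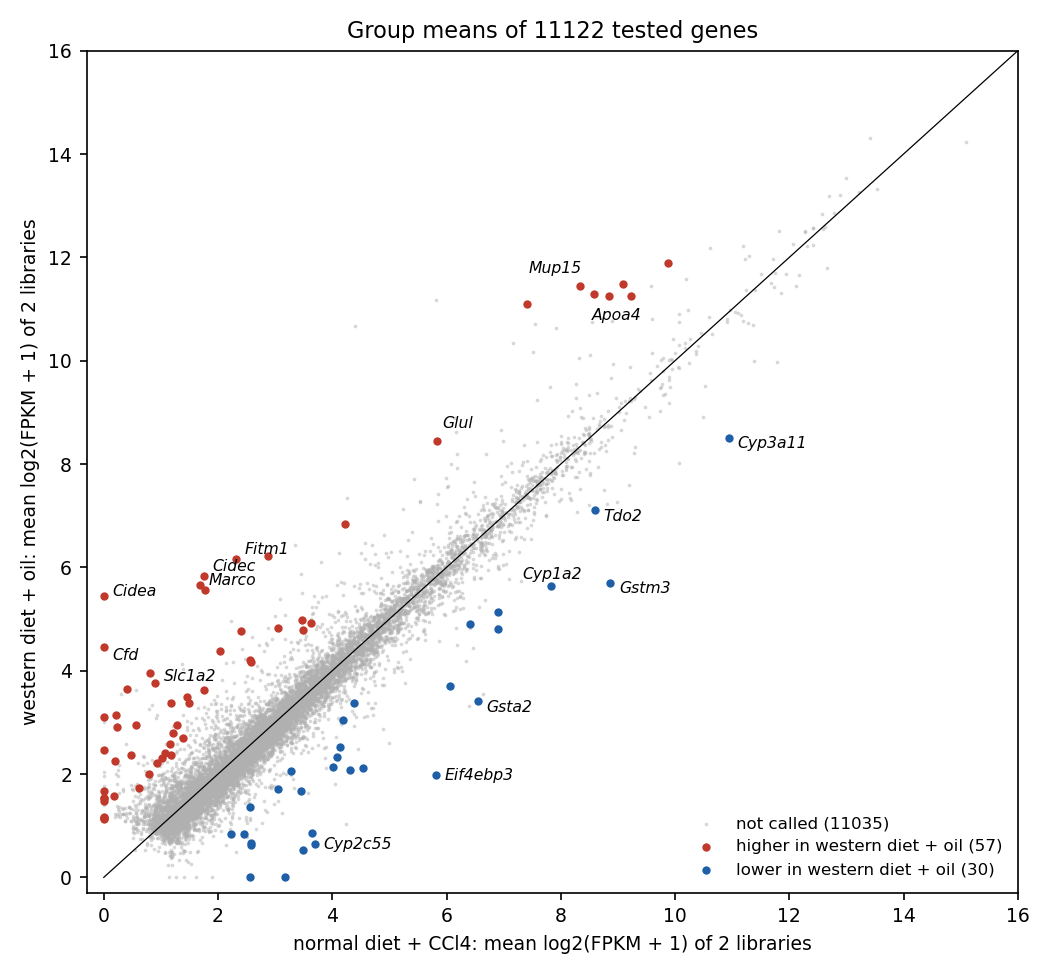
Mean log2(FPKM + 1) of the 2 western diet + oil libraries (vertical axis) against that of the 2 normal diet + CCl4 libraries (horizontal axis), 1 point per tested gene, with equal levels on the diagonal line. The 57 called higher genes (red) include Cidea and Cfd at 0 with CCl4, and the 30 called lower genes (blue) include Cyp3a11 and Gstm3.

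The calls rest on few libraries. Without either western diet library, 1 gene passed the adjusted threshold, Cidea, although 1176 and 694 genes still had an unadjusted p below 0.05 without library 1 and library 2. Leaving out CCl4 library 1 gave 131 calls (101 higher, 30 lower), and leaving out CCl4 library 2 gave 89 (40 higher, 49 lower). Leaving out the normal diet + oil libraries, which enter only the estimate of spread, gave 77, 28 and 126 calls. Of the 87 genes, 50 and 36 still passed the adjusted threshold without CCl4 library 1 and library 2, 1 without each western diet library, and 68, 26 and 78 without normal diet + oil library 1, 2 and 3. Each of the 87 kept its direction whichever library was left out; because the genes were chosen from fits that share the other libraries, this is a description.

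**Figure D2:**
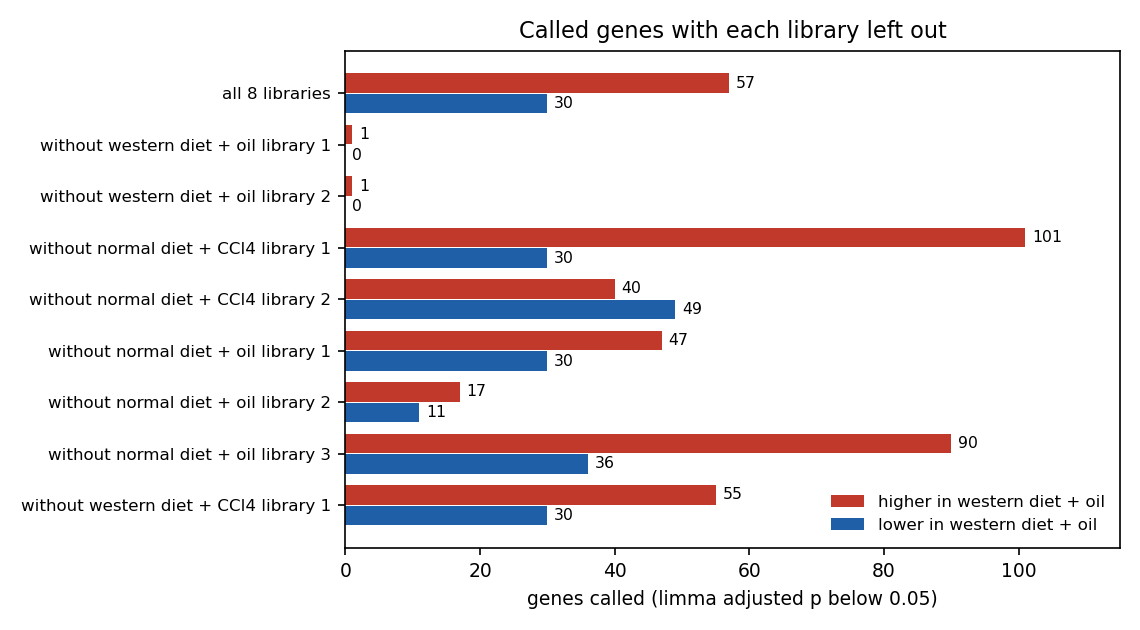
Number of genes called (limma adjusted p below 0.05) higher (red) or lower (blue) in western diet + oil, with all 8 libraries and with each library left out in turn. Counts run from 1 without either western diet library to 131 without CCl4 library 1.

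Some proteins of the lipid droplet were far higher on the western diet. Cidea, a CIDE protein that helps small droplets merge into large ones (ENSMUSG00000024526), was at 34.9 and 52.4 FPKM in the western diet libraries and listed at 0 in both CCl4 libraries. It was at 0, 0.344 and 0 in normal diet + oil and at 1.81 in the western diet + CCl4 library. The groups were far apart, with a difference of 5.45 on the log2(FPKM + 1) scale (SE 0.24, adjusted p = 0.000178). Because Cidea is listed at 0 with CCl4, this difference depends on the pseudocount and is not a fold change, and the same holds for every gene described as listed at 0. Its relative Cidec, also called FSP27 (ENSMUSG00000030278, chr6:113424634-113435760 on GRCm38), was at 44.1 and 71.5 FPKM on the western diet, against 3.66 and 1.46 with CCl4. That is a log2 difference of 4.08 (SE 0.44, adjusted p = 0.0152), with 0.431 to 2.15 FPKM in normal diet + oil and 16.1 in western diet + CCl4.

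A further 3 droplet genes were called. Plin4, a perilipin coat, was at 9.45 and 9.38 FPKM on the western diet, against 1.44 and 1.07 with CCl4 (log2 difference 2.21, SE 0.30, adjusted p = 0.0226). Pnpla3, a droplet lipase whose human counterpart carries a well-known fatty liver risk allele, was at 8.68 and 4.88 with the western diet and at 0 and 0.376 with CCl4 (2.69, SE 0.39, adjusted p = 0.028). Fitm1, an endoplasmic reticulum protein that partitions fat into droplets, behaved differently against normal diet + oil. It was at 57.6 and 86.4 FPKM on the western diet, 2.71 and 5.67 with CCl4 and 43.7, 47.5 and 14.1 in normal diet + oil, so the CCl4 libraries were the ones below the rest (3.85, SE 0.56, adjusted p = 0.028). For Cidea, Cidec, Plin4 and Pnpla3 it was the western diet libraries that stood above all others.

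Over the whole droplet list, 5 of 20 tested genes were called higher and none lower, with a median log2 difference of 0.32 against -0.04 for all tested genes. Cidea and Pnpla3 were under 1 FPKM in both CCl4 libraries, so the filter fixed their direction. Most of the list therefore lay close to equal while a few members were far apart, as the plot of gene lists shows. At an unadjusted p below 0.05 there were 7 higher and 2 lower. With CCl4 library 1 left out 3 were called, with CCl4 library 2 left out 2, and without either western diet library only Cidea.

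**Figure D3:**
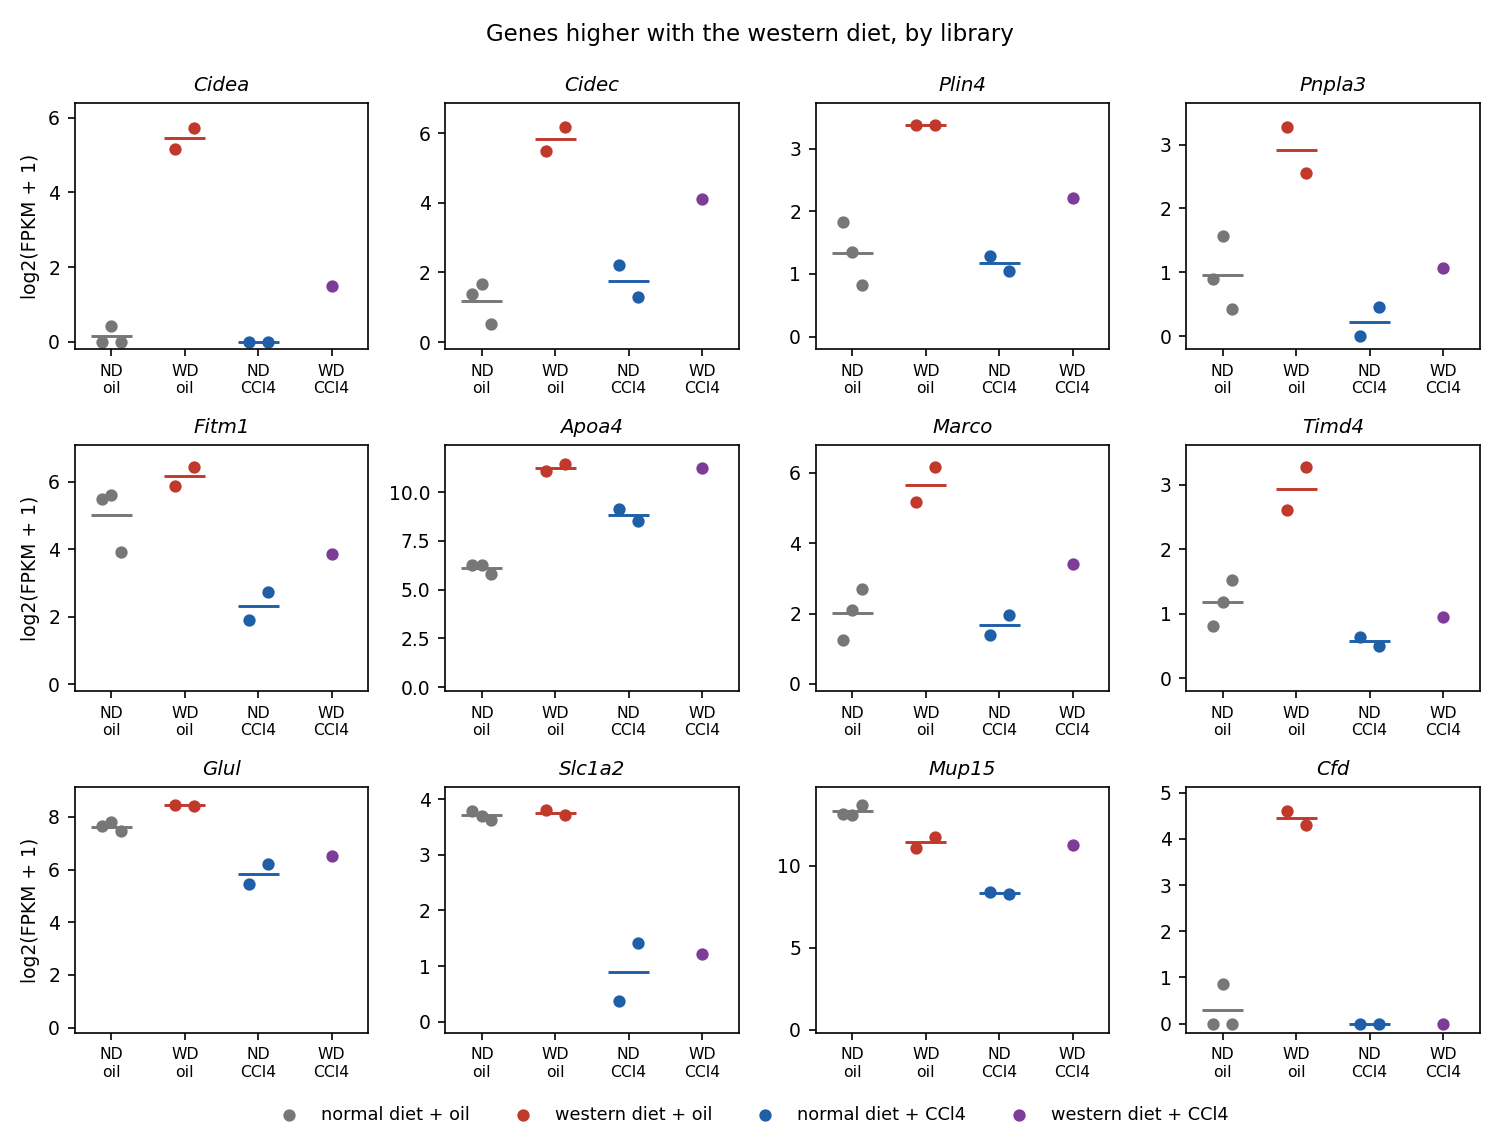
Level on the log2(FPKM + 1) scale in each of the 8 libraries (points) for 12 genes called higher in western diet + oil (WD oil) than in normal diet + CCl4 (ND CCl4), with lines at group means. Cidea and Cidec are high in the western diet + oil libraries, while Glul, Slc1a2, Fitm1 and Mup15 are low in the CCl4 libraries relative to normal diet + oil (ND oil).

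Several of these genes are best known from fat tissue. Cfd, which encodes adipsin, a protease of the alternative complement pathway secreted by adipocytes, was at 23.3 and 18.8 FPKM on the western diet. It was listed at 0 in both CCl4 libraries and in western diet + CCl4, and at 0, 0.811 and 0 in normal diet + oil (difference 4.45, SE 0.30, adjusted p = 0.0025). Fabp4, the adipocyte fatty acid binding protein that macrophages also make, was at 33.5 and 46.0 FPKM on the western diet, 17.7 and 8.76 with CCl4 and 3.09 to 5.79 in normal diet + oil; it was not called (log2 difference 1.58, adjusted p = 0.111). Of 10 adipose markers, Adipoq, Lep, Retn, Plin1 and Ucp1 were listed at 0 in all 8 libraries. Of the 5 that were tested 2 were called higher, Cidea and Cfd, and the median was 1.58. Both called genes were listed at 0 in both CCl4 libraries. They passed the filter only through the western diet libraries and could only come out above 0, so the share called and the median depend on the filter. The summed FPKM of all 10 was 1059.9 and 940.5 with the western diet, 924 and 1152 with CCl4, 1169 to 1583 in normal diet + oil and 283 in western diet + CCl4. Most of that sum in the 4 compared libraries is Car3, a carbonic anhydrase that liver also makes, at 879.5 and 763 against 837 and 1076 (adjusted p = 0.8); it was picked out after its values were seen.

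Among genes that carry fat into and out of the hepatocyte, 1 lipoprotein gene was called. Apoa4 encodes an apolipoprotein of triglyceride-rich particles (ENSMUSG00000032080, chr9:46240696-46243459). It was at 2144 and 2756 FPKM on the western diet, 570.0 and 367 with CCl4, 75.8, 76.8 and 55.8 in normal diet + oil and 2416 in western diet + CCl4. Both treatments were thus above normal diet + oil, and the western diet libraries exceeded the CCl4 libraries by 2.41 log2 units (SE 0.29, adjusted p = 0.017). It was the sole call among 17 apolipoprotein and lipoprotein assembly genes, whose median was 0.05.

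None of 15 fatty acid uptake and binding genes was called (median 0.42; 5 higher and 1 lower at an unadjusted p below 0.05). Cd36, the main fatty acid translocase, was at 38.5 and 30.4 FPKM on the western diet, 24.9 and 10.3 with CCl4 and 2.08 to 8.42 in normal diet + oil (1.04, SE 0.53, adjusted p = 0.518). Every western diet value was above both CCl4 values, but the CCl4 libraries lay further from each other than the group means did. Fabp2, an intestinal-type fatty acid binding protein, was at 127 and 150.4 against 49.5 and 27.3 (1.88, SE 0.37, adjusted p = 0.0749). Fatty acid oxidation and PPAR alpha target genes had 0 calls of 32, 2 higher and 3 lower at an unadjusted p below 0.05, and a median of -0.05, which became 0.11 and -0.25 without CCl4 library 1 and library 2. Cyp4a14, a classic PPAR alpha target, was at 88.8 and 44.1 with the western diet and 51.1 and 63.7 with CCl4, far above the 0.718 to 6.85 of normal diet + oil, and these groups overlapped. Cpt1b, the muscle-type carnitine palmitoyltransferase, belongs to no list and was called from low values, 2.16 and 1.65 FPKM on the western diet, and listed at 0 in the CCl4 and normal diet + oil libraries (adjusted p = 0.0206); 78.6% of its 50-base stretches also occur in another annotated gene, so its reads may be shared.

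Genes of fat synthesis from sugar sat higher with the western diet, but none of 23 passed the adjusted threshold. Of the 23, 20 had a difference above 0, 11 were higher and 0 lower at an unadjusted p below 0.05, and the median was 0.71. Without CCl4 library 1 the median was 0.47, with 8 higher and 2 lower. Fasn, fatty acid synthase, was at 88.3 and 87.4 FPKM against 13.3 and 38.1 with CCl4 and 32.1 to 63.6 in normal diet + oil (1.91, SE 0.48, adjusted p = 0.153). Scd1, which makes monounsaturated fatty acids, was at 3487 and 2243 against 508 and 1145 (1.87, SE 0.61, adjusted p = 0.281). For Fasn, CCl4 library 1 was the lowest of the 8 libraries. Srebf1, the transcription factor gene that drives this programme with insulin, was at 73.4 and 78.3 against 19.3 and 34.3 (adjusted p = 0.137). Fads2, a fatty acid desaturase, was at 329 and 363 against 114 and 138 (adjusted p = 0.0517). Pparg, the fat-storage nuclear receptor that is low in normal liver, was at 10.1 and 8.53 against 2.99 and 2.40 (1.48, SE 0.30, adjusted p = 0.0784). For each of these genes the groups did not overlap, which was true of 40.0% of all tested genes.

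Cholesterol synthesis and uptake genes lay on the other side. Of 25 tested, 0 were called, 0 were higher and 8 lower at an unadjusted p below 0.05, and the median was -0.41. Sqle, squalene epoxidase, was at 4.88 and 1.09 FPKM on the western diet, 14.3 and 17.0 with CCl4 and 18.9, 25.6 and 25.9 in normal diet + oil (-2.24, SE 0.43, adjusted p = 0.0666). Idi1, isopentenyl-diphosphate isomerase, was at 6.43 and 3.20 against 14.9 and 29.3, with 30.4 to 39.1 in normal diet + oil (-1.97, SE 0.36, adjusted p = 0.0584). The order was the same for both, with normal diet + oil highest, normal diet + CCl4 between and western diet + oil lowest. Nsdhl and Cyp51, later enzymes of the pathway, followed it at 10.9 and 6.99 against 21.1 and 30.4 (adjusted p = 0.052) and at 11.3 and 6.6 against 19.6 and 31.1 (adjusted p = 0.0985). CCl4 library 2 was above library 1 in each of these 4 genes. Without CCl4 library 1, 3 of the 25 were called lower; without library 2, 0 were called, with 4 higher and 5 lower at an unadjusted p below 0.05 and a median of -0.22. Abcg5 and Abcg8, the paired sterol exporters, were at 51.4 and 52.0 against 20.5 and 13.8 (adjusted p = 0.118) and at 34.4 and 32.6 against 14.2 and 9.63 (adjusted p = 0.0709).

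Several drug-metabolising enzymes were lower with the western diet. Of 70 tested P450 genes of all kinds, 6 were called and all 6 were lower with the western diet, where 0.782% of all tested genes were called. Among the 6, Cyp3a16 and Cyp2c55 were under 1 FPKM in both western diet libraries, so the filter fixed their direction. In the list of 24 xenobiotic P450 enzymes there were 5 calls, all lower, and a median of -0.39. Without CCl4 library 2 there were 4 lower calls and 1 higher with a median of -0.22, and without western diet library 1 there were 0 calls with a median of -0.15. The Cyp3a family oxidises steroids, bile acids and many drugs and is induced through the pregnane X receptor. It had 3 of 6 tested members called lower, 6 below 0 and a median of -1.93. Over all tested genes, 0.27% were called lower and 55.2% lay below 0. Cyp3a16 and Cyp3a41b were listed at 0 in both western diet libraries, so the filter fixed their direction, and the counts and median depend partly on it. Cyp3a11, the main Cyp3a gene of male mouse liver (ENSMUSG00000056035, chr5:145854426-145879964, minus strand), was at 337 and 389 FPKM on the western diet, against 1792 and 2178 with CCl4. Normal diet + oil was between them at 914, 565 and 648, and western diet + CCl4 was lowest at 163 (log2 difference -2.44, SE 0.28, adjusted p = 0.0164). Cyp3a16 (chr5:145436309-145469723), best known from fetal and female liver, was at 3.13 and 7.32 with CCl4 and listed at 0 in the other 6 libraries (-2.55, SE 0.31, adjusted p = 0.017). Cyp3a59 (chr5:146079257-146113287) was at 3.04 and 3.40 with the western diet, 20.1 and 17.8 with CCl4 and 7.37 to 11.1 in normal diet + oil (-2.24, SE 0.21, adjusted p = 0.0152).

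The upstream sequences of these 3 genes are shown because their members lie in 1 cluster on chromosome 5 and were called together. Each line gives 140 bases, from 250 to 111 bases before the RefSeq transcription start on GRCm38.p6, on the gene's own strand. Capitals mark the longest exact run shared by Cyp3a11 and Cyp3a16, and in Cyp3a59 the longest run that it shares with Cyp3a11.
Cyp3a11, chr5:145879965-145880104, minus strand: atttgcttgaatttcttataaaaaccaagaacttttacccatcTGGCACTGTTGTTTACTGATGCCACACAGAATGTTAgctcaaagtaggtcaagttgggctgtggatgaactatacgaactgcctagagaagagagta
Cyp3a16, chr5:145469834-145469973, minus strand: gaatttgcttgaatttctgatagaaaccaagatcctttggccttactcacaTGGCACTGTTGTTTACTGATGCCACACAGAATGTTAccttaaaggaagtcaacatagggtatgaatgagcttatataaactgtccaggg
Cyp3a59, chr5:146079008-146079147, plus strand: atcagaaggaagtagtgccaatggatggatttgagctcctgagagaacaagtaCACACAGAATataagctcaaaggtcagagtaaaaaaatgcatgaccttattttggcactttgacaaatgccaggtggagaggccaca
Cyp3a11 and Cyp3a16 share a run of 36 bases, at 207 to 172 and 199 to 164 bases before their starts, and 76.6% of aligned positions over the 250 bases before the start. Cyp3a59 shares a run of 10 bases and 56.3% with Cyp3a11. Its closest promoter was that of Cyp3a25, at 95.6% identity, and Cyp3a25 was not called, at 74.6 and 80.4 FPKM on the western diet against 141 and 166 with CCl4 (-0.97, SE 0.24, adjusted p = 0.145). Near-identical promoters thus belonged to 1 called and 1 uncalled gene, and both genes were lower with the western diet. Of the 50-base stretches in Cyp3a59 transcripts 30.0% recur in another annotated gene, against 26.8% in Cyp3a25 and 6.73% in Cyp3a11. The values of Cyp3a59 and Cyp3a25 may therefore include reads of their neighbours.

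Genes of other xenobiotic receptors followed. Cyp2b10, the marker of the constitutive androstane receptor, was at 0 and 1.07 FPKM on the western diet, 10.8 and 9.68 with CCl4 and 0.716 to 3.77 in normal diet + oil (-2.96, SE 0.48, adjusted p = 0.0449). Cyp2c55, another gene of that receptor's response, was at 0.663 and 0.480 against 13.6 and 10.6 (-3.05, SE 0.30, adjusted p = 0.0152). Cyp1a2, the caffeine-oxidising enzyme of pericentral hepatocytes (chr9:57676937-57683703), was at 46.7 and 50.5 with the western diet, 286 and 179 with CCl4, 289, 231 and 211 in normal diet + oil and 29.5 in western diet + CCl4 (-2.20, SE 0.27, adjusted p = 0.017). For Cyp1a2 the CCl4 libraries were close to normal diet + oil and the western diet libraries were the low ones, whereas for Cyp2b10 the CCl4 libraries were the high ones. Cyp2b9, its female-biased neighbour, was at 6.46 and 5.57 against 3.96 and 9.83, and the groups overlapped. The Cyp2c family was split: its 12 tested members ran from -3.05 to 2.76 around a median of 0.31, with Cyp2c38 at 15.6 and 17.2 against 0.589 and 3.19 (2.76, SE 0.55, adjusted p = 0.0756).

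**Figure D4:**
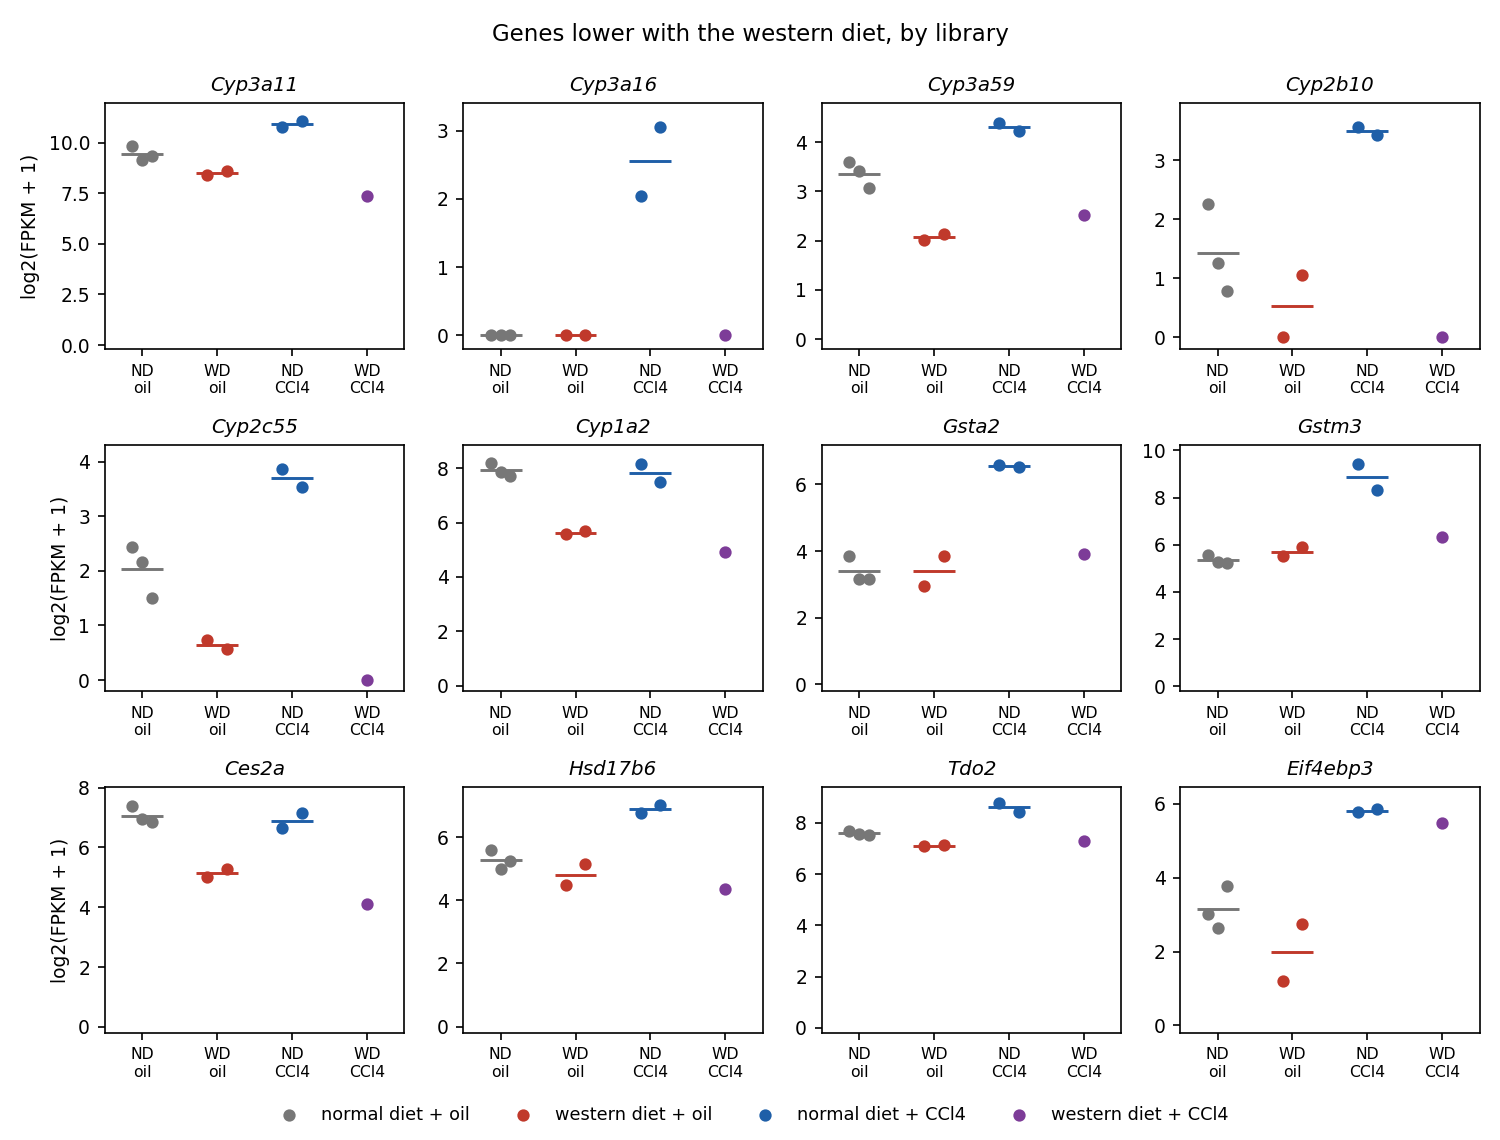
Level on the log2(FPKM + 1) scale in each of the 8 libraries (points) for 12 genes called lower in western diet + oil (WD oil) than in normal diet + CCl4 (ND CCl4), with lines at group means. Gsta2, Gstm3 and Cyp2c55 are high in the CCl4 libraries, while Cyp1a2 and Ces2a are low in the western diet + oil libraries relative to normal diet + oil (ND oil).

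Glutathione transferases, which couple reactive molecules to glutathione, showed some of the largest differences. Gsta2 (ENSMUSG00000057933, chr9:78331018-78355788) was at 6.74 and 13.5 FPKM on the western diet, 95.1 and 90.6 with CCl4, 7.95 to 13.4 in normal diet + oil and 14.2 in western diet + CCl4 (-3.15, SE 0.34, adjusted p = 0.0152). Gstm3 (ENSMUSG00000004038, chr3:107963696-107969283) was at 44.4 and 59.0, 687 and 315, 36.7 to 46.7 and 79.1 in the same order (-3.16, SE 0.36, adjusted p = 0.0164). In both genes the 2 CCl4 libraries were above the other 6. Gsta1 was at 6.14 and 18.3 against 259 and 37.1 (-3.09, SE 0.87, adjusted p = 0.203), Gsta4 at 13.9 and 30.7 against 109.8 and 68.8 (adjusted p = 0.0756) and Gstm1 at 881 and 1167 against 2782 and 2552 (adjusted p = 0.108). Transferases share much sequence: 49.8% of the 50-base stretches of Gsta2, 28.8% of Gstm3 and 90.5% of Gsta1 recur in another gene, so values within the family may be exchanged. As families, 4 of 4 Gsta and 8 of 8 Gstm entries, including the pseudogene Gstm2-ps1, were below 0, as were 55.2% of all tested genes. The medians were -2.55 and -0.72, with 1 call each. Gstm5 was at -0.09 and its groups overlapped.

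The wider list of NRF2 targets and glutathione genes, which defends against electrophiles, had 2 calls of 27, both lower (Gsta2 and Gstm3), 11 lower and 0 higher at an unadjusted p below 0.05 and a median of -0.67. Its median was -0.29 without CCl4 library 1 and -0.90 without library 2, with 2 and 4 calls. Nqo1, the standard NRF2 target, was at 4.83 and 5.01 FPKM on the western diet, 11.5 and 5.74 with CCl4 and 1.69 to 2.69 in normal diet + oil (-0.63, SE 0.29, adjusted p = 0.469). The antioxidant response element core TGACNNNGC, searched on both strands from 250 bases before to 50 after the RefSeq start, occurred in 8 of 25 listed genes with a promoter entry (32.0%) and in 14.0% of 27025 promoters. It was in neither of the 2 called genes' windows.

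Phase 2 and ester-cleaving enzymes had 3 calls of 26, all lower, with 12 lower and 1 higher at an unadjusted p below 0.05 and a median of -0.47. Over all tested genes, 0.27% were called lower and 5.91% were lower at an unadjusted p below 0.05. Ces1b, a carboxylesterase, was at 9.38 and 15.4 FPKM on the western diet, 65.0 and 66.1 with CCl4 and 15.5 to 26.5 in normal diet + oil (-2.35, SE 0.30, adjusted p = 0.0197). Ces2a, an esterase with triglyceride hydrolase activity, was at 31.0 and 37.7, 98.6 and 141, and 113 to 167 (-1.76, SE 0.27, adjusted p = 0.0342). Here the western diet libraries were the low ones and CCl4 was within the range of normal diet + oil or just under it. Sult5a1, a sulfotransferase, was at 0.874 and 0.695 against 3.91 and 3.44 (-1.39, SE 0.21, adjusted p = 0.0321). It was under 1 FPKM in both western diet libraries, so the filter fixed its direction. Without CCl4 library 2 none of the 26 was called, and without CCl4 library 1 there were 2.

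Genes with a place along the liver lobule came next. Glul, glutamine synthetase, which is confined to the ring of hepatocytes around the central vein (ENSMUSG00000026473, chr1:153899944-153909723), was at 352 and 339.8 FPKM on the western diet, against 42.9 and 72.3 with CCl4. Normal diet + oil was at 200.1, 221 and 174, and western diet + CCl4 at 90.0, so both groups that had CCl4 were below both that had oil (2.61, SE 0.27, adjusted p = 0.0152). Slc1a2, a glutamate transporter of the same cells (chr2:102658659-102790784), was at 13 and 12.1 with the western diet, 0.301 and 1.67 with CCl4, 11.4 to 12.9 in normal diet + oil and 1.32 in western diet + CCl4 (2.86, SE 0.30, adjusted p = 0.0152). Both genes still passed the adjusted threshold when either CCl4 library was left out.

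Not every pericentral gene followed Glul. Oat, ornithine aminotransferase, was at 267 and 163 FPKM on the western diet, against 18.9 and 93.2 with CCl4 (2.28, SE 0.69, adjusted p = 0.235). Cyp2e1, the enzyme that activates CCl4, was at 1886 and 2159.6 against 1070.1 and 1351, with 1789.6 to 2406 in normal diet + oil and 1032 in western diet + CCl4 (0.75, SE 0.25, adjusted p = 0.296). Cyp1a2, called lower, is also a pericentral gene. Of 18 tested pericentral genes, 2 were called higher and 1 lower, 8 were higher and 1 lower at an unadjusted p below 0.05, and the median was 0.39 (0.62 without CCl4 library 1). In bulk liver, fewer cells of a type and less RNA per cell cannot be told apart, here or for any cell marker that follows.

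Periportal, urea cycle and amino acid genes had 2 of 24 called, both lower, 12 lower and 1 higher at an unadjusted p below 0.05 and a median of -0.71. Tdo2, which starts tryptophan breakdown, was at 134 and 139 FPKM on the western diet, 436 and 345 with CCl4 and 181 to 204 in normal diet + oil (-1.50, SE 0.21, adjusted p = 0.0226). Hsd17b6, a steroid and retinol dehydrogenase, was at 21.4 and 34.3 against 108 and 129, with 30.8 to 47.3 in normal diet + oil (-2.08, SE 0.29, adjusted p = 0.0226). Neither of these is an enzyme of the urea cycle. Cps1, which starts that cycle, was at 161 and 133 against 329 and 394 (-1.30, SE 0.25, adjusted p = 0.0722), Cyp2f2, a periportal P450, at 149.7 and 154 against 348 and 734 (adjusted p = 0.101), and Hal, histidine ammonia-lyase, at 15.3 and 10.2 against 26.3 and 54.2 (adjusted p = 0.125). Aldh1b1, a mitochondrial aldehyde dehydrogenase of the same list, was at 28.7 and 25.8 against 96.2 and 74.0, with 9.46 to 18 in normal diet + oil (adjusted p = 0.057).

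Bile acid genes had 1 call in each direction among 20, and both were transporters. Slco1a1, a male-biased uptake carrier, was at 21.2 and 14.4 FPKM on the western diet, 4.22 and 5.65 with CCl4 and 50.1 to 67.9 in normal diet + oil (1.65, SE 0.25, adjusted p = 0.0322). Its neighbour Slco1a4 was at 2.06 and 2.28 against 9.69 and 10.1, with 3.23 to 6.2 in normal diet + oil (-1.78, SE 0.26, adjusted p = 0.028). The pair thus moved in opposite directions, and neither was called when either CCl4 library was left out. Of the synthetic enzymes, Cyp7a1, the rate-limiting step, was at 12.3 and 8.96 against 13.2 and 20.1 (-0.59, adjusted p = 0.449). Cyp8b1, which sets the share of cholic acid, was at 117 and 62.9 against 20.1 and 31.1 (1.74, adjusted p = 0.104). Cyp7b1 was at 22.5 and 22.7 against 25.9 and 19.7, all under the 89.1 to 172 of normal diet + oil.

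MUPs gave 8 of the 57 higher calls, 2 of them pseudogenes, and all 8 lie on chromosome 4. Both pseudogenes were under 1 FPKM in both CCl4 libraries, so the filter fixed their direction. All 33 tested family members were above 0, 25 at an unadjusted p below 0.05, with a median of 1.92. Mup15 was at 2184 and 3553 FPKM on the western diet, 342 and 305 with CCl4, 9310.5, 8934 and 13334 in normal diet + oil and 2437 in western diet + CCl4 (3.10, SE 0.31, adjusted p = 0.0152). Mup17 was at 2174 and 2188 against 131 and 217, with 3231 to 8042 in normal diet + oil (3.69, SE 0.44, adjusted p = 0.017). In Mup15 and Mup17 both treatments were therefore below normal diet + oil, and CCl4 was the lower of them. The family's share of the FPKM sum had that order too, but not every member did. Mup6 was at 313 and 209 FPKM on the western diet, against 94.3, 96.6 and 66.6 in normal diet + oil. All 50-base stretches of Mup15 and 78.1% of those of Mup17 recur in another gene, and the promoters of the pair are 97.6% identical, so the family is best read as a whole. Mup12 was at 1045 and 1258 against 173 and 191 and was not called (adjusted p = 0.0517). With the family removed and the rest rescaled, 67 of 11003 genes were called (39 higher, 28 lower), including 60 of the 79 other called genes.

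Other sex-biased genes were not uniform. Among 25 male-biased genes 2 were called, both higher (Mup15 and Slco1a1), with 6 higher and 3 lower at an unadjusted p below 0.05 and a median of 0.31. Without CCl4 library 1 there were 3 higher and 5 lower at that threshold (median 0.19), and without library 2 there were 11 higher and 3 lower (median 0.55). Elovl3, a male-biased fatty acid elongase, was at 48.7 and 21.2 FPKM on the western diet, 5.13 and 9.43 with CCl4 and 63.9 to 265 in normal diet + oil (adjusted p = 0.257). Hsd3b5, a male-specific steroid reductase, was at 9.05 and 1.81, 1.81 and 1.08, and 80.2 to 138 (adjusted p = 0.473), so both treatments lay far under the baseline. Serpina1e, an antitrypsin gene, was at 1109.7 and 913 against 3942 and 3124 (adjusted p = 0.0517), the opposite order to the MUPs. Of 15 female-biased genes 1 was called, Cyp3a16, whose direction was fixed by the filter, and the median was -0.44. Cyp2a4, a testosterone hydroxylase, was at 2.50 and 9.54 against 37.3 and 25.4 (adjusted p = 0.132). The 10 growth hormone axis genes had 0 calls, 1 higher and 1 lower at an unadjusted p below 0.05, and a median of 0.00.

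Of 19 Kupffer cell and macrophage markers, 3 were called, and all 3 were higher with the western diet. Kupffer cells are the resident macrophages of the liver sinusoids, and Timd4 marks the embryo-derived ones. Marco, a bacterial scavenger receptor (ENSMUSG00000026390, chr1:120474538-120505024), was at 35.1 and 70.0 FPKM on the western diet, 1.63 and 2.89 with CCl4, 1.39, 3.26 and 5.44 in normal diet + oil and 9.70 in western diet + CCl4 (3.98, SE 0.48, adjusted p = 0.017). Timd4, a receptor for phosphatidylserine on dying cells, was at 5.11 and 8.65 against 0.560 and 0.409, with 0.758 to 1.88 in normal diet + oil (2.37, SE 0.29, adjusted p = 0.017). Cd163, the haemoglobin scavenger receptor, was at 2.45 and 1.92 with the western diet, 1.20 to 2.25 in normal diet + oil and listed at 0 in the 3 libraries with CCl4 (adjusted p = 0.0226). For Marco the western diet was the high group, and for Cd163 CCl4 was the low one. Timd4 and Cd163 were under 1 FPKM in both CCl4 libraries, so the filter fixed their direction.

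Of the whole list, 14 were higher and 0 lower at an unadjusted p below 0.05 and 18 were above 0, with a median of 1.39. Over all tested genes, 5.49% were higher at that threshold and 44.8% lay above 0. The list median was 1.72 without western diet library 1 and 0.95 without western diet library 2. Its summed FPKM was 738 and 1345 with the western diet, 585 and 219.7 with CCl4, 124 to 206 in normal diet + oil and 638 in western diet + CCl4. Clec4f, the C-type lectin that defines Kupffer cells in mice, was at 52.8 and 93.6 against 30.8 and 16.9, with 12.3 to 21 in normal diet + oil (1.58, SE 0.38, adjusted p = 0.132). Cd5l, Folr2 and C1qa had the same order, at 112 and 216 against 77.3 and 26.5 (adjusted p = 0.255), 14.9 and 32.9 against 7.37 and 5.14 (adjusted p = 0.115), and 116 and 251 against 90.5 and 35.3 (adjusted p = 0.251). Cd5l, Folr2 and C1qa were above normal diet + oil in both treatments, while Marco and Timd4 were above it with the western diet and not with CCl4. The list median was 2.00 without CCl4 library 1 and 0.90 without library 2, with 3 and 1 calls, and 0 were called without either western diet library. Siglece, an inhibitory sialic acid receptor of myeloid cells, was called from 5.29 and 8.47 against 1.37 and 1.51 (adjusted p = 0.0342), and Tlr12, a Toll-like receptor, from 6.29 and 5.59 against 1.56 and 1.11 (adjusted p = 0.0226).

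Markers of recruited and lipid-associated macrophages depended on which CCl4 library was read. Trem2, which marks such cells in fatty liver, was at 3.14 and 9.27 FPKM on the western diet, 9.82 and 0 with CCl4 and 0 in normal diet + oil. Gpnmb, another of their markers, was at 1.45 and 3.89 against 30.4 and 0.859 (-1.14, SE 1.11, adjusted p = 0.753). Each western diet value lies between the 2 CCl4 values. The list's summed FPKM was 471 and 794 with the western diet and 1128 and 238 with CCl4; of 15 tested genes none was called, 1 was higher and 0 lower at an unadjusted p below 0.05, and the median of 0.58 became 1.44 without CCl4 library 1 and -0.48 without library 2.

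Markers of other leukocytes gave few calls. Of 14 neutrophil markers, 3 were tested and 0 called, although all 3 had an unadjusted p below 0.05, with sums of 23.5 and 48.3 FPKM on the western diet, 7.57 and 4.68 with CCl4, 2.1 to 9.49 in normal diet + oil and 506 in western diet + CCl4. S100a8 and S100a9, the calprotectin subunits, were at 6.71 and 13.5 against 2.03 and 0.590 (adjusted p = 0.132) and at 12.4 and 23.0 against 3.91 and 3.63 (adjusted p = 0.122). Ly6g, the defining neutrophil marker, was listed at 0 in all 4 compared libraries. Immunoglobulin genes gave 3 calls, all higher. All 3 were listed at 0 in both CCl4 libraries, so the filter fixed their direction. Ighg2b, an antibody heavy chain, was at 7.53 and 2.60 with the western diet (adjusted p = 0.0452). Igkc, the kappa light chain, was at 77.5 and 75.1 against 17.4 and 27.1 (adjusted p = 0.301). Ms4a1, which marks B cells, was listed at 0 in all 8 libraries. The 13 markers of MHC class II and dendritic cells summed to 245 and 452 against 260.5 and 111. Of 6 tested, 0 were called, 6 were above 0 and the median of 0.96 became 1.54 without CCl4 library 1 and 0.31 without library 2. The dendritic cell markers Flt3, Xcr1, Clec9a, Itgae, Cd209a and Siglech did not pass the filter, so this median covers only the MHC class II part of the list. Of 17 T and NK cell markers, 4 were tested, 0 were called or had an unadjusted p below 0.05, and the median was 0.04. Of 17 chemokine and inflammation genes 0 were called (5 higher and 1 lower at an unadjusted p below 0.05, median 0.57); without CCl4 library 1 there were 12 higher and a median of 1.00, and without library 2 there were 3 higher and 2 lower and a median of 0.26. Ccl2, the monocyte attractant, was at 3.66 and 3.97 against 1.27 and 0.404 (adjusted p = 0.0875).

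Haemoglobin RNA, which comes from red cells in the blood left in the tissue, also differed. Haemoglobin genes took 0.165% and 0.0914% of the FPKM sum in the western diet libraries, 0.0431% and 0.0411% with CCl4, 0.0318% to 0.0506% in normal diet + oil and 0.124% in western diet + CCl4. Hba-a1, the alpha chain, was at 238 and 149 FPKM against 59.6 and 69.2 (1.54, SE 0.28, adjusted p = 0.0594). The erythroid genes Slc4a1 and Hemgn were listed at 0 in all 8 libraries. The part of blood content in the macrophage, neutrophil and immunoglobulin values was not tested.

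Matrix and stellate cell genes, which report on scarring, were not separated between the western diet and CCl4. Of 22 extracellular matrix genes 0 were called and 0 had an unadjusted p below 0.05, and their median was -0.02. Col1a1, the main fibrillar collagen, was at 2.42 and 4.06 FPKM on the western diet, 16.4 and 1.77 with CCl4, 0.284 to 2.68 in normal diet + oil and 3.30 in western diet + CCl4 (-0.74, SE 0.81, adjusted p = 0.784). Acta2, the smooth muscle actin of activated stellate cells, was at 0.956 and 1.76 against 4.27 and 0.830. The high value in both genes is CCl4 library 1. Dcn, decorin, was at 72.4 and 77.4 against 78.4 and 36.2, with 23.2 to 27.0 in normal diet + oil, and Timp1, an inhibitor of matrix breakdown, at 1.01 and 3.25 against 3.07 and 0.490. The matrix median turned from 0.62 without CCl4 library 1, with 8 of 22 genes higher at an unadjusted p below 0.05, to -0.60 without library 2, with 10 lower. The 18 stellate cell and myofibroblast markers had 0 calls, 5 higher and 0 lower at an unadjusted p below 0.05, and a median of 0.33, which became 0.81 and -0.17 in the same pair of settings. Whether CCl4 gave more matrix RNA than the western diet could not be read from these libraries.

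Proliferation genes had the same dependence. Of 39 cell cycle and DNA replication genes 16 were tested; 0 were called, 3 were lower and 0 higher at an unadjusted p below 0.05, and all 16 were below 0 with a median of -0.81. Rrm2, a subunit of ribonucleotide reductase, was at 1.90 and 2.28 FPKM on the western diet, against 28.3 and 3.86 with CCl4 (-1.95, SE 0.71, adjusted p = 0.341). Stmn1, stathmin, was at 6.30 and 6.95 against 68.0 and 5.22 (adjusted p = 0.594). Mki67 did not pass the filter, at 0.520 and 0.294 against 7.40 and 0. Without CCl4 library 2, 9 of the 16 were called lower with a median of -1.69; without CCl4 library 1, 0 were called and the median was 0.14. Cdkn1a, the p21 cell cycle inhibitor, was at 14.0 and 12.3 against 15.8 and 3.10. Afp, the fetal liver protein, was at 0.798 and 0.718 against 14.7 and 0.741, and Ly6d, a lipid-anchored surface protein, at 64.3 and 73.3 against 132 and 26.1, with 0.528 to 1.27 in normal diet + oil. In each of these genes CCl4 library 1 was the highest of the 4.

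Acute phase proteins, the secreted response of hepatocytes to inflammation, were all above 0 (25 of 25) with a median of 0.74 and 0 calls. At an unadjusted p below 0.05, 13 were higher and 0 lower. Over all tested genes, 44.8% lay above 0 and 5.49% were higher at that threshold. The list median was 0.94 without CCl4 library 1 and 0.62 without CCl4 library 2. It was 0.73 without western diet library 1 and 0.69 without western diet library 2. Saa1 and Saa2, the serum amyloids, were at 1384 and 3828 FPKM on the western diet against 65.7 and 46.2 (5.36, SE 1.13, adjusted p = 0.0912) and at 1022 and 2589.5 against 21.2 and 19.2 (6.26, SE 1.48, adjusted p = 0.128). The difference for Saa2 exceeded that of every called gene, but normal diet + oil ranged from 123 to 1923 for Saa1 and from 39.9 to 1874 for Saa2, which overlapped the western diet. Western diet + CCl4 was at 12024 and 13185. Lcn2, lipocalin 2, was at 284 and 786 against 235 and 20.2 (adjusted p = 0.5). Hamp, the iron hormone hepcidin, was at 135 and 499.5 against 705 and 1650.0 (adjusted p = 0.389).

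**Figure D5:**
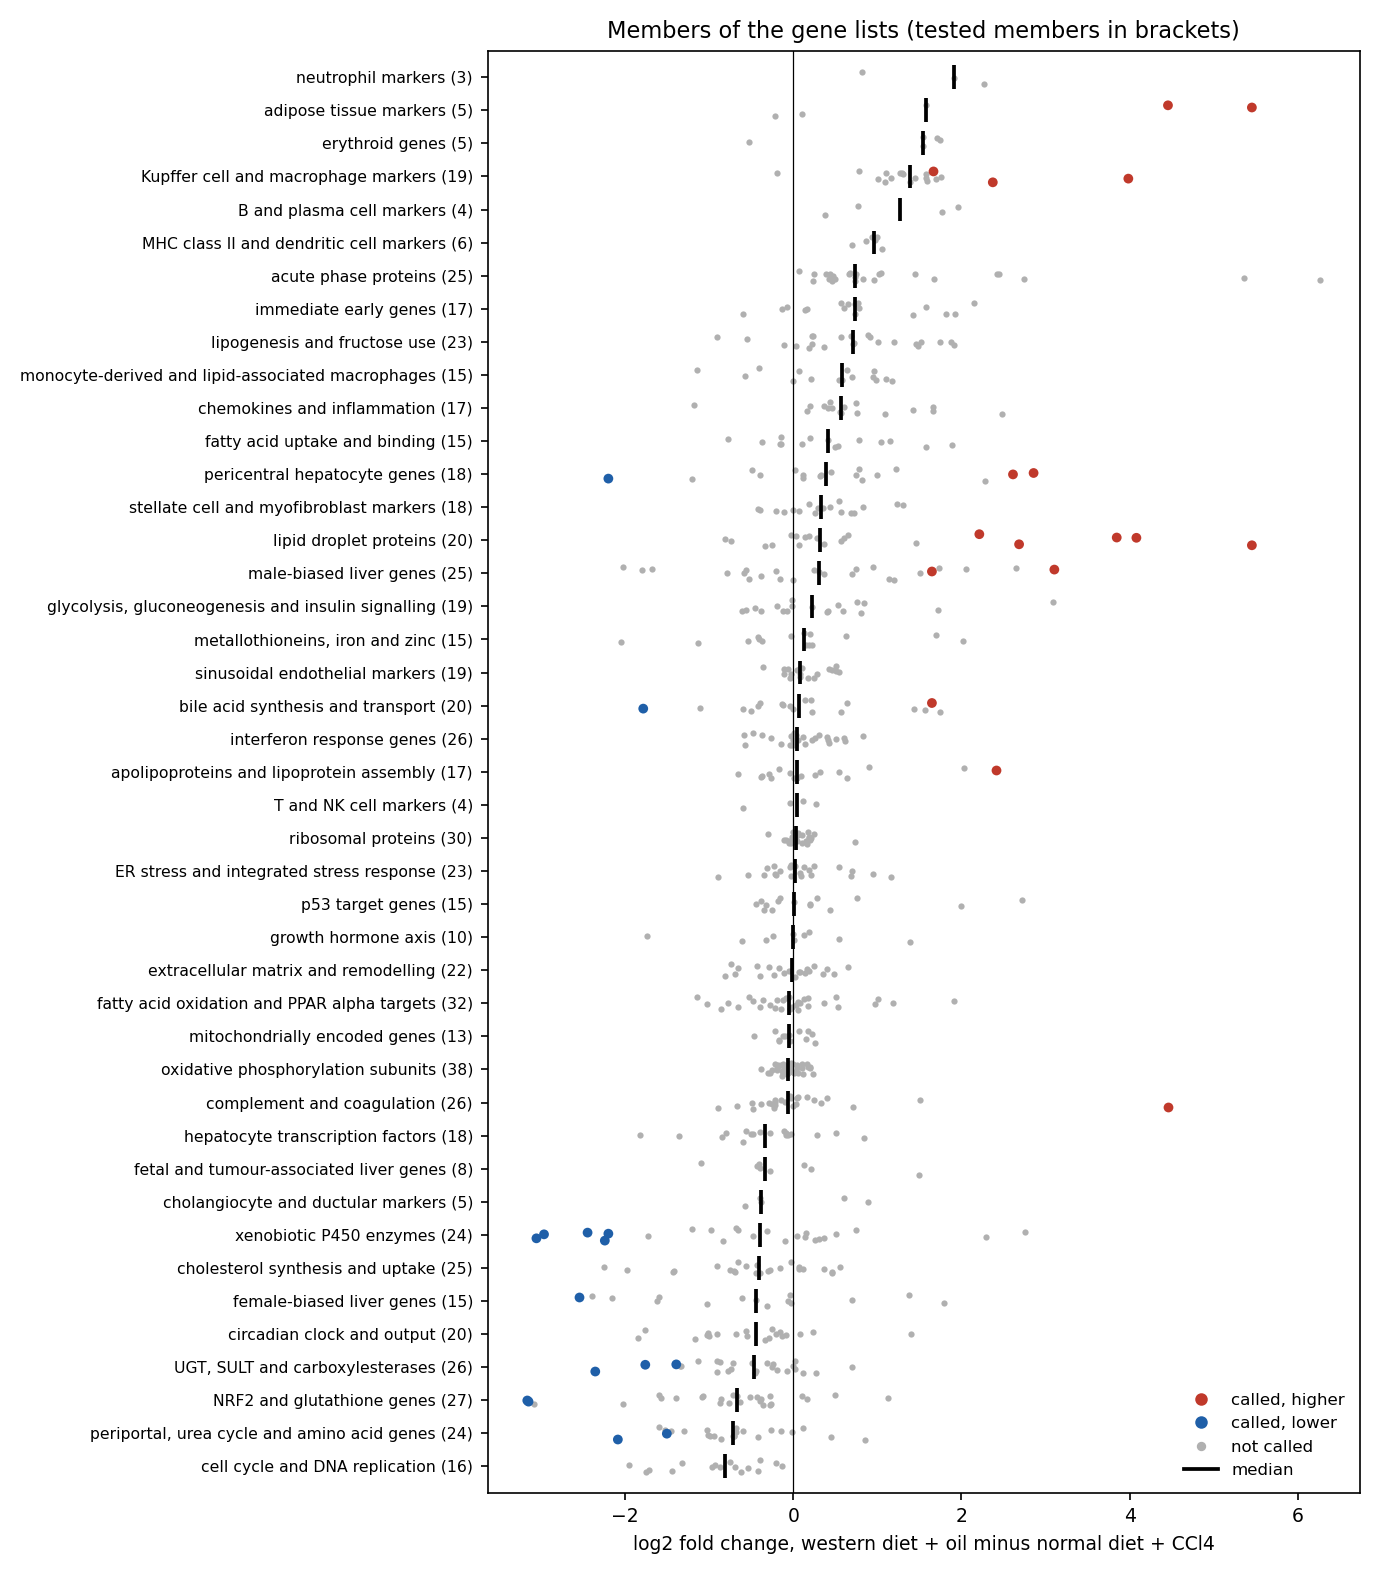
Log2 difference, western diet + oil minus normal diet + CCl4, for each tested member of 43 gene lists (points) with the list median (black bar), ordered by median, with the number tested in brackets. Called members are red (higher) or blue (lower); cell cycle genes have the lowest median (-0.81) with no call, and ribosomal and respiratory chain genes lie near 0.

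Immediate early genes, which respond within minutes to stress or handling, had 0 calls of 17, 8 higher and 0 lower at an unadjusted p below 0.05 and a median of 0.73. Fos was at 3.07 and 4.07 FPKM against 0.443 and 0 (adjusted p = 0.0749) and Nr4a1 at 3.56 and 2.88 against 0.428 and 0 (adjusted p = 0.0786). Circadian genes had 0 calls of 20, 1 higher and 2 lower at an unadjusted p below 0.05, and a median of -0.44; Tef, a clock output factor, was at 9.35 and 15.9 against 27.0 and 30.7 (adjusted p = 0.408). The sources used here do not give the hour of sampling, and its part in these values was not tested. Igfbp1, an insulin-suppressed hepatokine, was at 153 and 170.2 against 35.7 and 8.96 (3.09, SE 0.78, adjusted p = 0.151). Fgf21, a fasting and sugar-responsive hepatokine, was at 5.33 and 2.40 against 1.86 and 0.447 (adjusted p = 0.444). For genes common to all cells, the medians were 0.04 for 30 ribosomal proteins, -0.06 for 38 subunits of oxidative phosphorylation and -0.05 for 13 mitochondrially encoded genes, with 0 calls and 0 genes at an unadjusted p below 0.05 in each. The ribosomal median moved to 0.29 without CCl4 library 1, -0.17 without CCl4 library 2, 0.28 without western diet library 1 and -0.18 without western diet library 2. The ER stress list (0 calls of 23, 4 higher at an unadjusted p below 0.05) and the interferon list (0 calls of 26, 1 higher) had medians of 0.03 and 0.05. The interferon median became 0.39 with 6 higher without CCl4 library 1, and -0.20 with 3 lower without library 2. Hepatocyte transcription factors, which keep liver identity, had 0 calls of 18, 1 higher and 5 lower at an unadjusted p below 0.05, and a median of -0.33. Sinusoidal endothelial markers had 0 calls of 19, 2 higher and 0 lower, and a median of 0.08, which became 0.34 and -0.09 without CCl4 library 1 and library 2. Duct cell markers had 0 calls of 5 tested, and their median of -0.38 became 0.87 without CCl4 library 1 and -0.58 without library 2, where 2 were lower at an unadjusted p below 0.05.

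In all, 28 of the 87 called genes belonged to 13 of the 43 lists, and 59 belonged to none. Depp1, a FOXO-induced regulator of autophagy, was among the highest at 81.9 and 65.7 FPKM on the western diet, 8.55 and 4.63 with CCl4 and 20.3 to 39.0 in normal diet + oil (3.34, SE 0.36, adjusted p = 0.0152). Adgrv1, a very large adhesion receptor, was at 6.42 and 20.2 with the western diet, 0.735 and 0 with CCl4 and 0 in the other 4 libraries (adjusted p = 0.0262). Clstn3, a calsyntenin, was at 15.6 and 13.6 against 0.962 and 0.555 (3.15, SE 0.53, adjusted p = 0.0452). Tubb2a and Tubb2b, beta tubulins, were at 151 and 84.2 against 22.5 and 13.7 (adjusted p = 0.0449) and at 25 and 15.9 against 3.98 and 2.36 (adjusted p = 0.028), and they share stretches of sequence. Serpina12, the adipokine vaspin, was at 20.0 and 33.9 against 5.59 and 3.26, with 16.9 to 18.4 in normal diet + oil (2.35, SE 0.29, adjusted p = 0.017).

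Smaller higher calls included transport and junction genes. Slc13a3, a dicarboxylate carrier, was at 8.33 and 12.4 FPKM against 1.58 and 1.89 (adjusted p = 0.0164), and Cldn2, a pore-forming claudin of tight junctions, at 34.3 and 21.5 against 6.81 and 7.87 (adjusted p = 0.0387). Plbd1 and Nxpe2 were at 15.2 and 18.8 against 5.24 and 4.70 (adjusted p = 0.0154) and at 4.72 and 3.62 against 0.383 and 0.387 (adjusted p = 0.0152). Nxpe2 was at 4.92 to 6.68 in normal diet + oil, so CCl4 was its low group. Rad51b, a DNA repair gene, was at 12.5 and 10.4 against 2.67 and 2.08, with 0 to 0.874 in normal diet + oil (adjusted p = 0.0452).

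Among lower calls outside the enzymes, Eif4ebp3, a repressor of cap-dependent translation, had the largest difference. It was at 1.32 and 5.71 FPKM on the western diet, 53.8 and 56.9 with CCl4, 5.26 to 12.7 in normal diet + oil and 44.0 in western diet + CCl4 (-3.84, SE 0.50, adjusted p = 0.0222). It is thus a gene whose 3 libraries with CCl4 were all above the 5 without it, and 65.5% of its 50-base stretches recur in another gene. Meg3, an imprinted long noncoding RNA, was listed at 0 with the western diet and at 12 and 5.31 with CCl4, with 0.327 to 2.98 in normal diet + oil (adjusted p = 0.0452). Etnppl, which breaks down phosphoethanolamine, was at 4.59 and 2.35 against 20.4 and 23.9 (-2.42, SE 0.32, adjusted p = 0.0226). Foxq1, a forkhead factor, was at 0.482 and 0.676 against 4.57 and 5.35 (adjusted p = 0.017), and Fgfr1, a fibroblast growth factor receptor, at 0.578 and 0.525 against 4.72 and 5.16 (adjusted p = 0.0452). Cryl1, a sugar acid dehydrogenase, was at 4.1 and 5.45 against 15.1 and 18.3 (adjusted p = 0.017), Bdh2, a short-chain dehydrogenase, at 3.15 and 3.60 against 12.2 and 18.5 (adjusted p = 0.025), and Slc43a1, an amino acid carrier, at 0.742 and 0.842 against 3.51 and 5.59 (adjusted p = 0.0282). Klf9, a glucocorticoid-responsive factor, had the smallest called difference, at 9.49 and 9.38 against 18.4 and 21.2 (-0.99, SE 0.17, adjusted p = 0.0483).

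The remaining groups place these differences. Of the 57 higher genes, the mean of normal diet + oil was closer to western diet + oil for 26 and closer to CCl4 for 31. Higher genes therefore came both from a high western diet, as with Cidea, and from low levels with CCl4, as with Slc1a2. Of the 30 lower genes, normal diet + oil was closer to western diet + oil for 19 and to CCl4 for 11. The single western diet + CCl4 library was closer to western diet + oil for 33 of the 57 higher genes and 23 of the 30 lower genes, and for 13 of the lower genes it was lower still. Cyp3a11, Cyp2c55 and Etnppl are examples of the last, with 163, 0 and 1.5 FPKM, while Eif4ebp3 at 44.0 stayed near the CCl4 value.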

How the data were processed

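Total liver RNA was made into stranded mRNA libraries, per the labels' protocols. The authors deposited FPKM values for 8 libraries, and the submitters' processing notes name GRCm38 and, with no roles given, HISAT2 2.2.1, StringTie 2.1.0, cutadapt 3.7 and FastQC 0.11.9. Counts were not analysed here, so depth and counting error are unknown; the FPKM sums ran from 514830 to 612750. Values were put on a log2(FPKM + 1) scale from the deposited FPKM, with a pseudocount of 1. All 8 libraries entered 1 limma 3.58.1 fit in R 4.3.3 (eBayes with trend, 4 residual degrees of freedom) with a mean per group; the single western diet + CCl4 library adds no spread. The contrast was western diet + oil minus normal diet + CCl4, two-sided, with Benjamini-Hochberg adjustment over 11122 genes. The fit was tested on simulated data.

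The gene lists, named genes and comparison were chosen with earlier results of these data known. Named genes were up to 12 of the largest called changes in each direction, up to 4 called members per list, fixed genes, and others chosen after their values were seen. The labels do not say that libraries came from separate animals, so p-values measure the spread between these libraries. An exact two-sided permutation test of 2 against 2 cannot go below 0.333 and was not used. Genomic positions came from GENCODE M21 and promoters from RefSeq, which matched 63 of the 87 called genes. On either strand of the promoter windows, TCACNCCAC occurred in 1 of 17 cholesterol genes (1.44% of all promoters), TTCNNNGAA in 1 of 18 male-biased genes (9.55%) and the direct repeat 1 element in 0 of 22 fatty acid oxidation and 0 of 18 lipid droplet genes (0.0481%). A few listed genes are not reported here.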

Additional observations from a re-analysis of the deposited data

How the results depend on the processing

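The count of 87 called genes (57 higher, 30 lower) was 120 (69, 51) with libraries rescaled to a common FPKM sum, 69 (45, 24) with median-of-ratios scaling and 67 (39, 28) without the Mup family. It was 71 (47, 24) with the filter over 8 libraries, 65 (35, 30) at a mean FPKM of at least 5, 67 (43, 24) with no filter, 61 (37, 24) with a pseudocount of 0.1, 63 (43, 20) from the 4 compared libraries alone and 90 (56, 34) with robust eBayes. Calling genes by a 2-fold change and an unadjusted p under 0.05 gave 401 (269, 132). The higher share of 65.5% became 57.5% with the common sum, which moved the median of all genes to -0.11, and 53.8% at a mean of at least 5. Leaving out 1 library gave 1 to 131 calls, 1 to 101 higher and 0 to 49 lower. Deviations of same-numbered libraries from their group means correlated at -0.06 between the compared groups. Against normal diet + oil the correlation was -0.24 for western diet + oil and -0.09 for CCl4. With 2 libraries per group this cannot show whether the replicate numbers mark pairs. A replicate block gave 73 calls (53, 20) over 8 libraries and 0 (0, 0) over 4, where 936 genes had an unadjusted p below 0.05. Of the 87 genes, 50 passed under all 3 scalings, and none of those still tested changed direction under the settings run.

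Over 57 called genes named here, 719 values under other settings kept the call and 346 lost it; none reversed. Of 77 uncalled genes, 69 values passed a threshold and 17 reversed. Leaving out CCl4 library 1 or library 2 gave log2 differences of 0.35 or -1.18 for Acta2, 1.78 or -0.26 for Cdkn1a, 0.59 or -2.06 for Col1a1, -0.63 or 0.50 for Cyp2b9, 0.19 or -0.19 for Cyp7b1, 1.03 or -0.067 for Dcn, 0.90 or -3.18 for Gpnmb, 1.36 or -0.93 for Ly6d, 0.29 or -3.18 for Stmn1, 0.97 or -0.48 for Timp1 and 2.70 or -0.73 for Trem2; without library 1 Cyp4a14 was -0.02. Leaving out western diet library 1 or 2 gave -0.36 or 0.63 for Cyp4a14, and without library 2 Cyp2b9 was 0.03, Cyp7b1 -0.01 and Timp1 -0.29. With the common sum Cyp7b1 was -0.0865. The causes were not tested. A lone library left in a group was assumed to vary like the others.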
